A study of Homo sapiens with 8 samples.

Results

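Most of the genes described here build and run the first steps of protein secretion. These steps reach from the targeting of a nascent chain to the endoplasmic reticulum (ER) to vesicle traffic between the ER and the Golgi apparatus. The genes were chosen by gene symbol from the tables of poly(A) site pairs. Of the 7504 genes listed in either table, 71 have such a symbol. The MDA-LM2 table holds 67 of them among 6541 genes and the sgHNRNPC table holds 67 among 6801, and 63 are in both, among 5838 shared genes. The mRNA 3′ ends were sequenced in 8 samples, 2 replicates in each of 4 groups. MDA-MB-231 is a poorly metastatic human breast cancer line and MDA-LM2 is its highly lung-metastatic derivative. The sgControl and sgHNRNPC groups are MDA-MB-231 cells with CRISPR interference, carrying a control guide RNA or a guide RNA against HNRNPC. Each table covers a comparison, MDA-LM2 with MDA-MB-231 cells or sgHNRNPC with sgControl cells, and gives for every pair of sites in a gene which is proximal and which is distal. No value of a single sample is in the tables, so the depth and the spread between replicates are unknown, and the level of HNRNPC itself could not be checked. The tables also give the authors' estimate of the change in site usage for each pair, which was not used here. What follows describes the sites at which these mRNAs were measured, not how often each site was used.

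The signal recognition particle (SRP) binds a signal sequence as it leaves the ribosome and docks at its receptor on the ER. The chain then passes through the SEC61 channel, helped by SEC62, SEC63 and the translocon-associated protein (TRAP, SSR) complex, while signal peptidase removes the signal sequence and oligosaccharyltransferase adds N-glycans. Cargo leaves in COPII vesicles and is retrieved in COPI vesicles, with TMED, LMAN and KDEL receptors selecting cargo, and golgins and SNARE proteins tethering and fusing the vesicles. An mRNA with several poly(A) sites can end at a proximal or a distal one, which changes the length of its 3′ untranslated region (UTR) or, for a site upstream of the last exon, its coding sequence. Cleavage is directed by a hexamer a short way upstream, most often AATAAA, and HNRNPC is a nuclear protein that binds runs of U in RNA.

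The ends of SEC62, SSR1, SAR1B and SAR1A are shown because each of these genes had ends of protein-coding transcripts that lay far apart in the same last exon. Each line gives the last 30 bases of the transcript on its own strand, as DNA, from GRCh38 with GENCODE release 44, and capitals mark the hexamer AATAAA or ATTAAA nearest the end. The SEC62 ends are at chr3:169993802-169993831 and chr3:169998344-169998373 (plus strand), and those of SSR1 at chr6:7287570-7287599 and chr6:7281143-7281172 (minus strand). The SAR1B ends are at chr5:134606429-134606458 and chr5:134601149-134601178, and those of SAR1A at chr10:70150204-70150233 and chr10:70147289-70147318 (both genes on the minus strand).
SEC62-207, proximal: tacaAATAAAacattttattttaattgtta
SEC62-201, distal: ctaAATAAAaagtcaagatttttgtagcaa
SSR1-202, proximal: aataatgtgttcataaagcatggatctcgc
SSR1-201, distal: tcccttaaATTAAAgctgatcatgaaagta
SAR1B-208, proximal: atgcAATAAAacaaactctaatgtttggca
SAR1B-201, distal: aaAATAAAatactaatctggtcttgaagaa
SAR1A-202, proximal: ctaagcattttAATAAAaagttaaaacaaa
SAR1A-204, distal: aggcctgtatgATTAAAatttttgatttca
A hexamer is present at both ends of SEC62, SAR1B and SAR1A, and at SSR1 only at the distal of the ends shown.

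Over both tables these genes had 257 distinct poly(A) sites, 227 for the MDA-LM2 comparison and 239 for the sgHNRNPC comparison. A site is either the end of an annotated transcript (127 sites) or a genomic position (130 sites, 50.6%, 95% Wilson interval 44.5 to 56.6, against 47.1% of the sites of the other genes). The intervals given here cover counting error only, and sites of a gene are not independent. The median gene had 3 sites, as did the median of the other 7433 genes, and the range was 2 to 9. There were 25 genes with 2 sites (35.2%, interval 25.1 to 46.8, other genes 42.2%) and 17 genes with 5 or more (23.9%, interval 15.5 to 35.0, other genes 18.4%). In both cases the interval includes the share of the other genes. SSR2, a TRAP subunit, is not listed in either table.

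**Figure D1:**
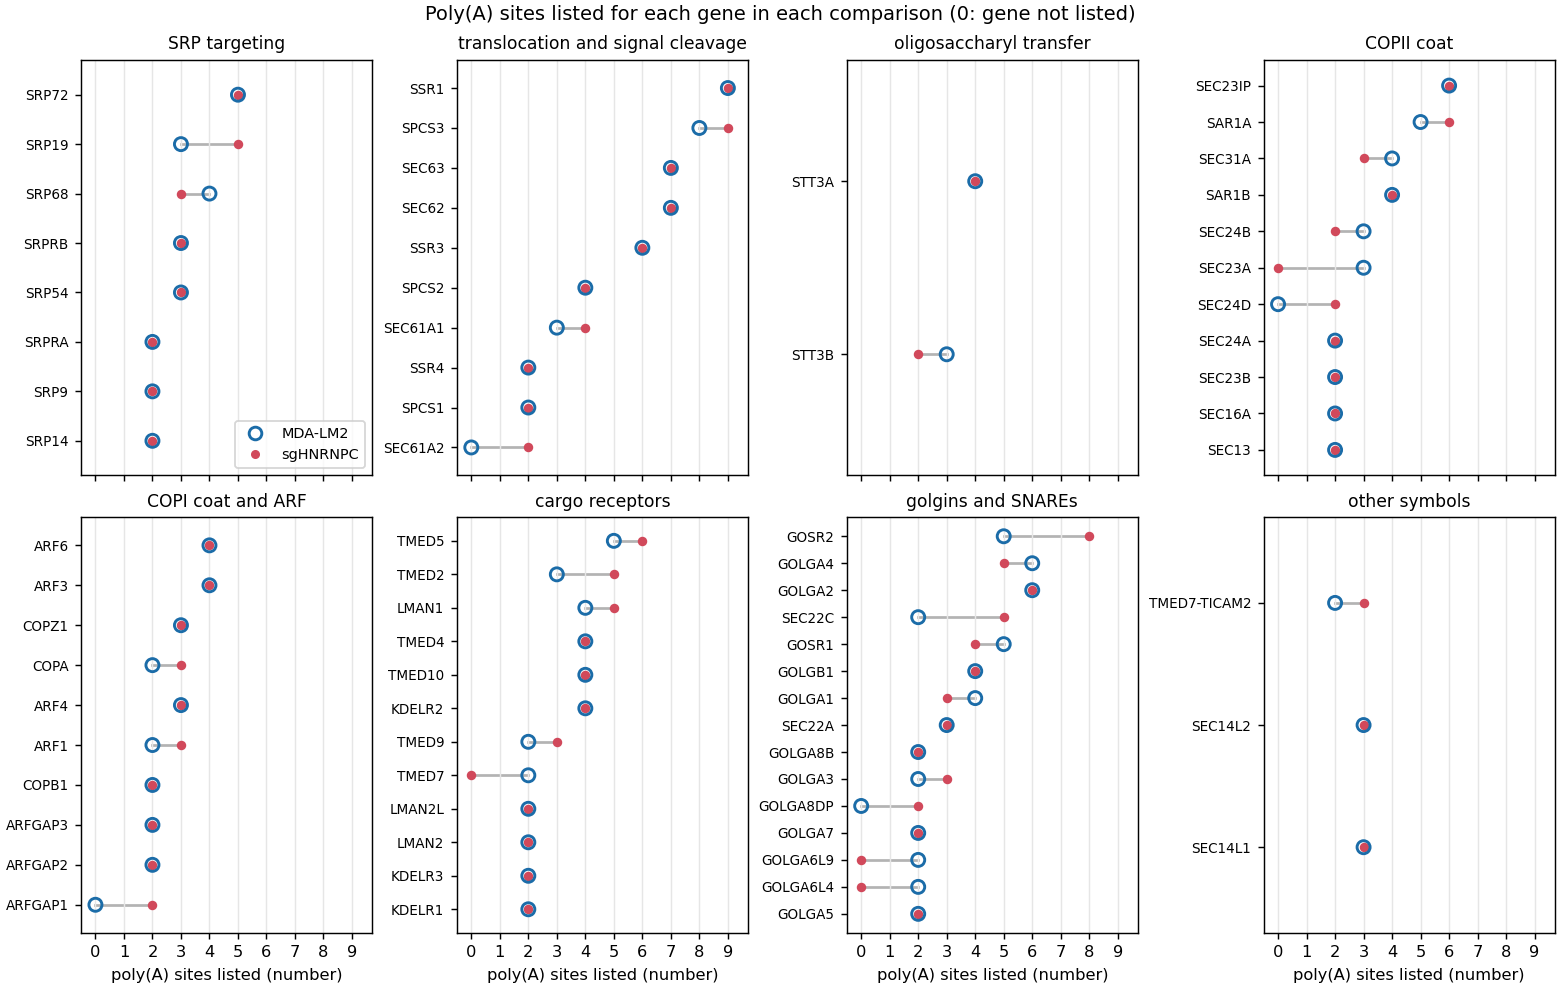
Number of poly(A) sites (x axis) listed for each of the 71 genes (rows), by role; open circles are the MDA-LM2 table, filled circles the sgHNRNPC table, and 0 means that the gene is not listed. SSR1 has 9 sites in both tables, while GOSR2 has 5 and 8 and SEC22C has 2 and 5.

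The 8 targeting genes had 26 sites with a median of 3, and SRP72 and SRP19 had the most, 5 each. SRP72, a protein subunit of the SRP, had the same 4 genomic positions and 1 transcript end in both tables, and the genomic positions after the first lay 6705, 7416 and 7854 nt from it. SRP19, which helps assemble the SRP, had 3 sites in the MDA-LM2 and 5 in the sgHNRNPC table. The additional 2 sites were a retained-intron transcript end (SRP19-209) and a genomic position 2692 nt after the first genomic position. SRP68 had 4 sites in the MDA-LM2 and 3 in the sgHNRNPC table, which lacked a genomic position 11124 nt upstream of the other. SRP54, the subunit that binds the signal sequence, had 3 transcript ends in both tables and no genomic position. The 2 ends of SRP54 that could be placed lay 432 nt apart. A run of at least 5 U was found before 1 of the 11 placed ends of targeting genes (31.7% of the ends of other genes), and a hexamer before 6 of 11 (47.7%). U runs were before 8 of 18 ends of translocation genes, 0 of 2 of oligosaccharyltransferase genes, 8 of 20 of COPII genes and 6 of 16 of COPI and ARF genes. They were before 6 of 17 ends of cargo receptor genes, 6 of 19 of golgin and SNARE genes and 2 of 6 of the remaining genes.

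The 10 genes of translocation and signal cleavage had 52 sites, a median of 5, and 5 of these genes had 5 or more sites. The interval of that share is 23.7 to 76.3%, against 18.4% of the other genes, and no test was run, since the classes were chosen with earlier results known. SSR1, the alpha subunit of the TRAP complex, and SPCS3, a subunit of signal peptidase, had 9 sites each. SEC62 and SEC63 had 7 each and SSR3 had 6, whereas SSR4 and SPCS1 had 2. The sites of 7 of the 9 genes in both tables were the same in both (other genes 53.1%). The exceptions were SPCS3 and SEC61A1, the gene for the main channel subunit, each with 1 more genomic position in the sgHNRNPC table. SEC61A2 was listed in the sgHNRNPC table only, with 2 sites.

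In SSR1 (chr6:7268306-7347446, minus strand, GRCh38), the order from proximal to distal was the same in both tables. The end of SSR1-209, a transcript without a defined coding sequence, came first, and 4 genomic positions spread over 1469 nt followed it. Next came the end of SSR1-202, then 2 more genomic positions, and the end of SSR1-201 was the most distal. The ends of SSR1-202 and SSR1-201 lie 6427 nt apart in the same last exon, with annotated 3′ UTRs of 2294 and 8721 nt. The order places the last 2 genomic positions between them, so that the SSR1 3′ UTR held at least 4 listed sites.

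SPCS3 had 7 genomic positions in all. Between the ends of SPCS3-202 and SPCS3-201, 3892 nt apart in the last exon, the sgHNRNPC table listed 7 positions and 6 of these were in both tables. They lay at 0, 445, 850, 1296, 1767, 2260 and 2793 nt from the first of them, and the one at 1767 nt was the position listed in the sgHNRNPC table alone. In SEC62, 4 genomic positions over 2149 nt lay between the ends of SEC62-207 and SEC62-201, which are 4542 nt apart. The 3′ UTRs of these transcripts are 215 and 5310 nt long, and their annotated coding sequences stop at different positions, as the lengths show. SEC63, a J-domain protein that works with SEC62, had a different layout, in which transcript ends and genomic positions alternated. Its 4 transcript ends spanned 57062 nt. The most proximal, SEC63-203, is a nonsense-mediated decay transcript that ends in an inner exon of SEC63-201, and only SEC63-204 ends in the same last exon. SSR3 had 4 genomic positions over 2018 nt between 2 transcript ends, and SSR4 had 1 genomic position followed by 1 transcript end.

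**Figure D2:**
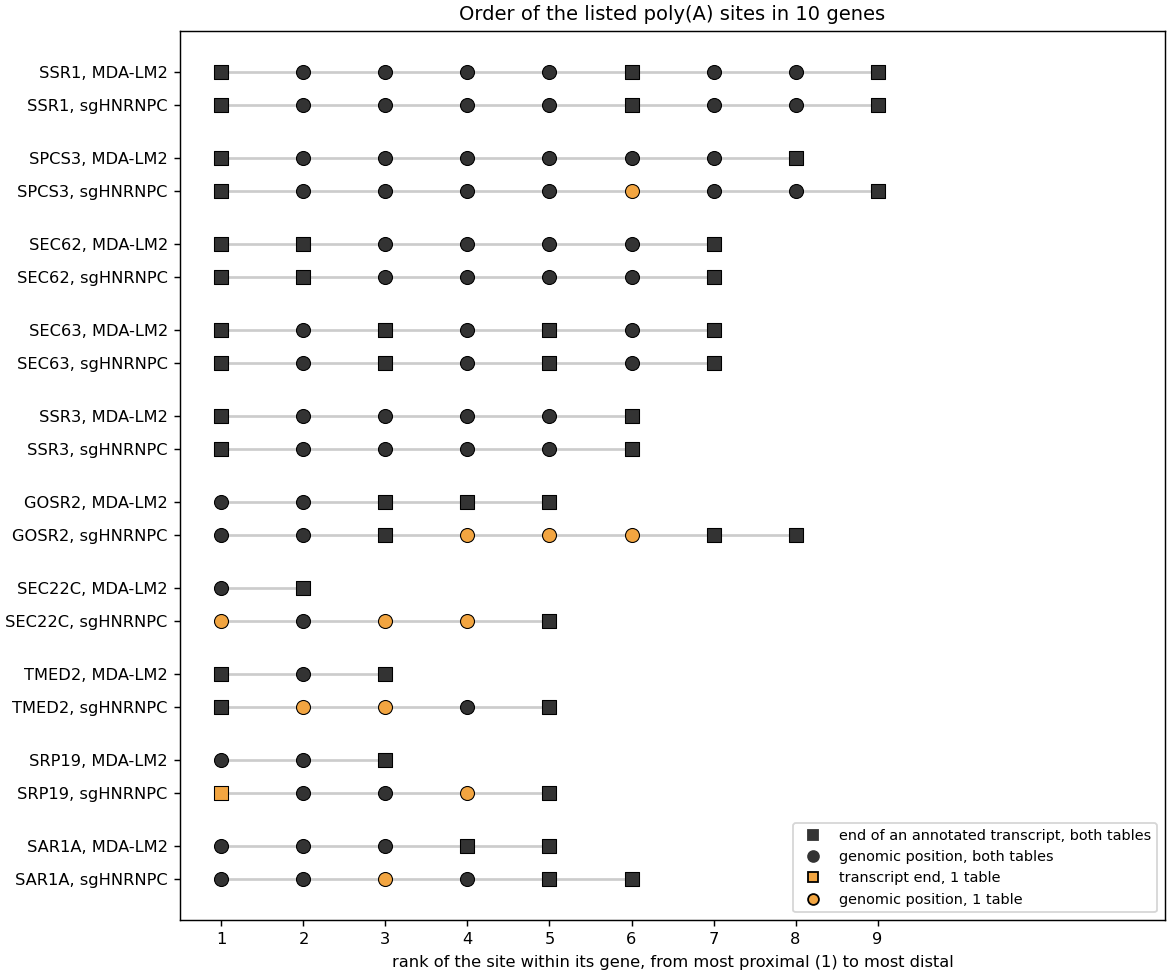
Sites of 10 genes ranked from most proximal to most distal (x axis) in each table (rows); squares are transcript ends and circles genomic positions, black in both tables and orange in 1 table. The rows of SSR1, SEC62, SEC63 and SSR3 are the same in both tables, and orange circles occur in SPCS3, GOSR2, SEC22C, TMED2, SRP19 and SAR1A.

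The catalytic subunits of oligosaccharyltransferase were both listed. STT3A had 3 genomic positions over 1316 nt before its transcript end, the same in both tables. STT3B had 2 genomic positions 427 nt apart, and the sgHNRNPC table lacked the second. Both ends belong to protein-coding transcripts. The end of STT3A-201 had no hexamer and a run of 6 A in the 20 nt that follow it in the genome, whereas that of STT3B-201 had AATAAA 16 nt before the end.

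The 11 genes of the COPII coat had 36 sites, a median of 3. SAR1A and SAR1B encode the GTPase that starts coat assembly. SAR1A had 5 sites in the MDA-LM2 and 6 in the sgHNRNPC table, with all genomic positions before the end of SAR1A-202, and its 2 ends gave 3′ UTRs of 2272 and 5187 nt. SAR1B had the same 4 sites in both tables and 3′ UTRs of 521 and 5801 nt, the ends lying 5280 nt apart. SEC23IP, a partner of the inner coat, had 6 sites in both tables, with genomic positions over 43250 nt. SEC31A, of the outer coat, had only transcript ends, 4 over 36397 nt, of which the last 2 lay 502 nt apart in the same exon. SEC23A was listed in the MDA-LM2 table only and SEC24D in the sgHNRNPC table only, and the other 9 of the 11 genes were in both. Over all the secretory genes 63 of 71 were in both tables, and over all listed genes 5838 of 7504.

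The 10 genes of the COPI coat and ARF class had 28 sites, a median of 3. None had 5 or more (interval 0 to 27.8%, other genes 18.4%). ARF3 and ARF6, small GTPases, had 4 sites each, the same in both tables. In ARF3, 2 genomic positions 1323 nt apart lay between ends 2698 nt apart in the same last exon. ARF6 had 3 genomic positions over 937 nt and then the end of ARF6-201. ARF4 had the same 3 sites in both tables, and its 2 transcript ends lay 4218 nt apart. ARF1 had 2 sites in the MDA-LM2 and 3 in the sgHNRNPC table, where the end of ARF1-202 was also listed. Of the 16 placed ends of this class, 5 carry the annotation's tag for an mRNA whose 3′ end was not found. The listed position of these ends is where the transcript model stops. The tag is on 10 of 109 ends over all the secretory genes, these 5 included, and on 11.7% of the ends of the other genes.

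Among the cargo receptors, 12 genes had 41 sites with a median of 3.5. TMED5 had 6 sites, TMED2 and LMAN1 had 5, and KDELR2, a receptor that returns ER proteins, had 4. TMED2 had 3 sites in the MDA-LM2 and 5 in the sgHNRNPC table, where 2 genomic positions 546 nt apart preceded the shared one, which lay 980 nt from the first. For TMED5, the sgHNRNPC table alone listed a genomic position between the ends of TMED5-205 and TMED5-202. For LMAN1, which carries glycoproteins out of the ER, it alone listed the end of the retained-intron transcript LMAN1-205. The 5 sites of this class that were listed in 1 table, in genes of both, were in the sgHNRNPC table, which held 61.5% of such sites in the other genes. The sites of KDELR2 were the same in both, with 3 genomic positions over 1169 nt.

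Among the golgin and SNARE genes, 5 of the 12 in both tables had the same sites in both (other genes 53.1%), and 12 of their 51 sites were listed in 1 table (other genes 19.6%). GOSR2, a SNARE of ER to Golgi transport, had 5 sites in the MDA-LM2 and 8 in the sgHNRNPC table. The 3 genomic positions listed in the sgHNRNPC table only lay in a row between the ends of GOSR2-211 and GOSR2-234. These ends are 1809 nt apart in the last exon. The 3′ UTRs of these transcripts are 1150 and 2855 nt long, and here too the coding sequences stop at different positions. SEC22C, of the SEC22 SNARE-like family, had 2 sites in the MDA-LM2 and 5 in the sgHNRNPC table. GOSR1 had 4 genomic positions over 4002 nt in both tables, and the end of GOSR1-210 was listed in the MDA-LM2 table only. GOLGA2 had the same 6 sites in both, and GOLGA4 had 6 and 5. GOLGA8B had 2 sites in each table, of which only the end of GOLGA8B-202 was shared. The GOLGA6 and GOLGA8 genes are close copies of each other, so their reads may be split between loci.

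The symbol rule also took 3 genes that fell in none of these classes and are not part of these machines. The classes rest on symbols alone, so some of their genes may also act elsewhere. SEC14L1 and SEC14L2, lipid-binding proteins, had 3 sites each, the same in both tables. TMED7-TICAM2, a readthrough transcript of neighbouring genes, had 4 sites of which 1 was in both tables. GOLGA8DP is annotated as a pseudogene.

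Of the 63 genes in both tables, 41 had the same sites in both (65.1%, interval 52.8 to 75.7, other genes 53.1%). There were 14 genes with more sites in the sgHNRNPC table and 7 with more in the MDA-LM2 table. Among the other genes the shares were 25.4% and 15.0%, against 22.2% and 11.1% here, both within the intervals of 13.7 to 33.9 and 5.49 to 21.2. Of 127 genomic positions, 17 were in the sgHNRNPC table only (13.4%, interval 8.53 to 20.4) and 2 in the MDA-LM2 table only (1.57%, interval 0.433 to 5.56). Transcript ends were more even, with 5 and 7 of 113, as in the other genes (7.56% and 8.17%). In the other genes, genomic positions were likewise more often in the sgHNRNPC table only, 16.7% against 6.95% in the MDA-LM2 table only, and the latter share lies above the interval here. Over both kinds, 209 of 240 sites were in both tables (87.1%, interval 82.2 to 90.7), and the 80.4% of the other genes lies below that interval. These differences were not tested. The rule by which a site entered a table is not given in the sources used here, and library depth could not be compared, so a site listed in 1 table is not shown to be used in those cells alone.

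The most distal site was a transcript end in 63 of 67 genes in each table (94.0%, interval 85.6 to 97.7), and the most proximal site was one in 29 of 67 (43.3%, interval 32.1 to 55.2). In the other genes the most distal site was a transcript end in 89.0% of genes for the MDA-LM2 comparison and 91.8% for the sgHNRNPC comparison, and the most proximal in 50.1% and 46.2%. For neighbouring genomic positions of a gene, the median distance was 711 nt over 75 neighbouring pairs (other genes 792 nt), from 401 to 47075 nt. Of these pairs 25 (33.3%) lay within 500 nt. None lay under 400 nt apart, and in the other genes 11 of 5854 did (0.188%). Genomic positions closer than 400 nt are thus nearly absent from the tables. Distances between the outermost genomic positions had a median of 2018 nt in 37 genes, against 1871.5 nt in 2972 other genes.

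**Figure D3:**
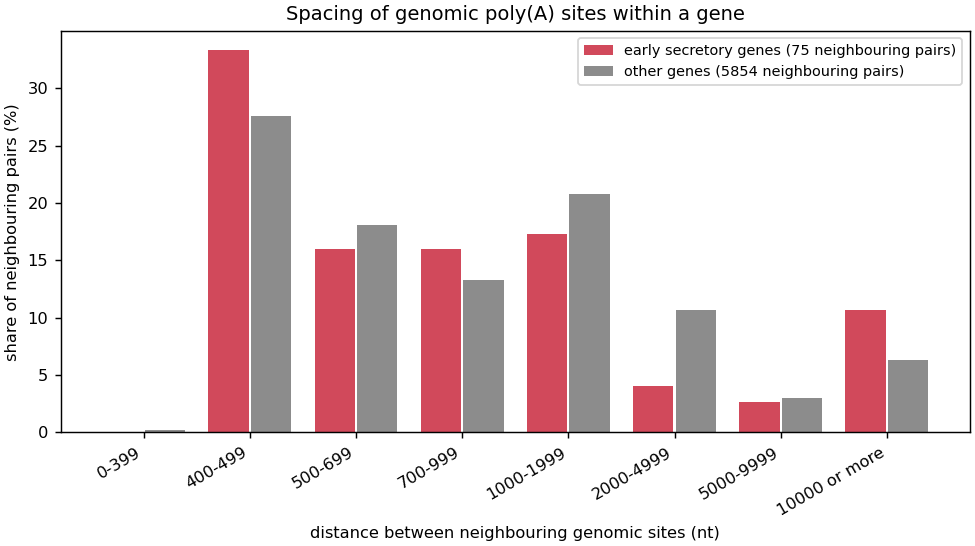
Share of neighbouring genomic positions (y axis, %) by their distance in nt (x axis, bins of unequal width) in the 71 early secretory genes and in the other genes. Pairs from 400 to under 500 nt apart form the tallest bar in both groups, 33.3% and 27.6%, and no pair of the early secretory genes lies below 400 nt.

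Of the 127 transcript ends, 109 had a match in GENCODE release 44 with the same identifier and version and thus a GRCh38 position (85.8%, other genes 89.6%). In 69 of them (63.3%, other genes 64.9%) the transcript is protein-coding, 16 are retained-intron transcripts and 9 are nonsense-mediated decay transcripts. AATAAA or ATTAAA was found on the transcript strand in the last 40 nt of 54 ends (49.5%, interval 40.3 to 58.8, other genes 47.7%), with a median of 17 nt from the hexamer to the end in both groups. AATAAA alone was at 45 ends. Among protein-coding ends without the tag for a missing 3′ end, 41 of 59 had a hexamer (69.5%, other genes 71.0%), against 13 of 50 remaining ends (26.0%, other genes 20.4%). A run of at least 5 U in the last 100 nt was found at 37 of 109 ends (33.9%, interval 25.7 to 43.2, other genes 31.7%). In none of these shares did the interval exclude that of the other genes.

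Of the 44 placed ends that lay upstream of another end of their gene, 21 were in the last exon of the most distal transcript (47.7%, other genes 43.5%), 19 in an inner exon (43.2%) and 4 outside its exons. In 35 genes with several placed ends, the most proximal had a hexamer in 5 (14.3%, interval 6.26 to 29.4) and the most distal in 26 (74.3%, interval 57.9 to 85.8). The hexamer was at the distal end only in 21 genes, at both in 5, at neither in 9 and at the proximal end only in 0. The other genes had a hexamer at 11.1% of proximal and 74.1% of distal ends, so this difference was not particular to the secretory genes. Runs of U were at 6 of 35 proximal ends (17.1%, interval 8.1 to 32.7, other genes 24.9%) and at 17 of 35 distal ends (48.6%, interval 33 to 64.4, other genes 36.6%). The transcripts themselves differed as well, with 13 protein-coding at the proximal end and 31 at the distal end (37.1% and 88.6%, other genes 45.7% and 77.0%), and the part of this in the other differences was not tested.

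**Figure D4:**
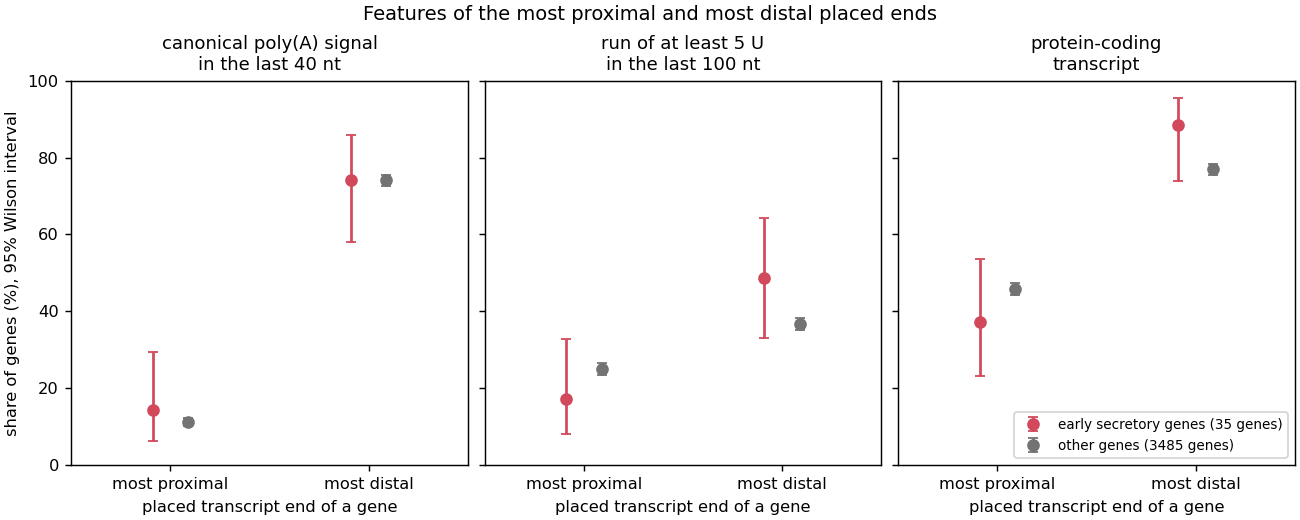
Share of genes (y axis, %, with 95% Wilson intervals) whose most proximal or most distal placed transcript end has a hexamer, a run of U, or a protein-coding transcript. Hexamers are at 14.3% of the most proximal and 74.3% of the most distal ends in the 35 early secretory genes, and at 11.1% and 74.1% in the other genes.

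SRP19 and LMAN1 show the contrast in hexamers in single genes. In both, the proximal end is that of a retained-intron transcript listed in the sgHNRNPC table only. The distal end is that of a nonsense-mediated decay transcript in SRP19 and of a protein-coding transcript in LMAN1. The last 30 bases of each end are given as above, from chr5:112891696-112891725 and chr5:112898342-112898371 (plus strand) for SRP19 and chr18:59330776-59330805 and chr18:59327823-59327852 (minus strand) for LMAN1.
SRP19-209, proximal: aagccacaaaaagtacagggccgccctgaa
SRP19-208, distal: tatgcAATAAAttcactttcatgaacacta
LMAN1-205, proximal: ctggatatgaatgttaccccctaagtctcc
LMAN1-201, distal: cttattcaAATAAAgaaatattttagtaaa
The LMAN1-201 end also had the longest U run of all placed ends of these genes, 10 U in its last 100 nt.

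In 9 genes at least 2 listed ends belonged to complete protein-coding transcripts, and the longest and shortest 3′ UTR differed by a median of 2830 nt, from 502 to 6427 nt. In the 833 other genes of this kind the median was 1819 nt, from 9 to 24151 nt, and the difference was not tested. SSR1, SAR1B and SEC62 differed most, followed by SAR1A, SEC14L1 (248 and 3078 nt), GOLGA6L4 (85 and 2766 nt), GOSR2, SEC24B (71 and 1221 nt) and SEC31A (63 and 565 nt). The listed ends of SEC24B-201, SEC31A-227 and STT3A-201 have no hexamer and close on a run of at least 6 A. Such a run closes 3 of 109 ends here (2.75%) and 3.01% of those of the other genes. They are shown from chr4:109540867-109540896 (plus strand), chr4:82819011-82819040 (minus strand) and chr11:125623062-125623091 (plus strand).
SEC24B-201: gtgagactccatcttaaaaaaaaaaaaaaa
SEC31A-227: ttttccaaagaaacatgttaaaaaaaaaaa
STT3A-201: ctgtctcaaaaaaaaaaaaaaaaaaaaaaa
Primers of T can also start at A runs within a transcript, and the part of this in these listings was not tested. A run of at least 6 A in the next 20 nt followed 2 of 109 ends (1.83%, other genes 4.17%), those of STT3A-201 and TMED9-201.

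**Figure D5:**
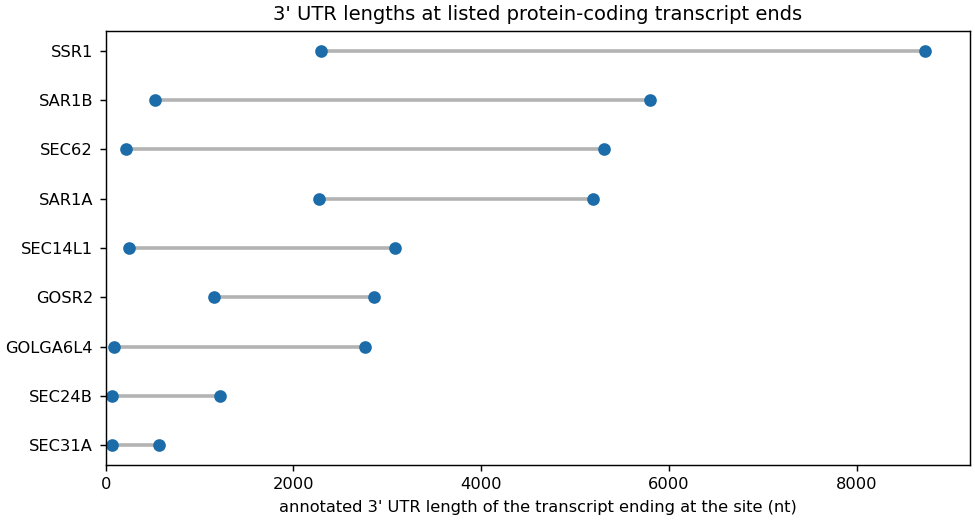
Annotated 3′ UTR length in nt (x axis) of each complete protein-coding transcript whose end is listed, for the 9 genes with at least 2 such ends (rows); lines join the shortest and the longest. SSR1 reaches 8721 nt, and the SEC62 lengths are 215 and 5310 nt.

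HNRNPC-bound sequences from crosslinking (CLIP), which the study cloned into a poly(A) site reporter, were searched for in these genes. Of 98 such sequences, 4 matched exactly, in SAR1A, GOSR2, TMED2 and LMAN2, all on the transcript strand. The other genes were not searched, so this count has no share of the other genes to be set against. In SAR1A the sequence is 86 nt long (chr10:70150497-70150582) and ends 293 nt before the end of SAR1A-202 and 3208 nt before that of SAR1A-204. In TMED2 it is 76 nt long (chr12:123597578-123597653) and ends 929 nt before the end of TMED2-201. In GOSR2 it is 98 nt long (chr17:46938947-46939044) and ends 762 nt before the end of GOSR2-211. In LMAN2, a lectin that carries glycoproteins, it is 132 nt long (chr5:177331601-177331732) and ends 34 nt before the end of LMAN2-201. The SAR1A, GOSR2 and LMAN2 sequences thus lie upstream of every placed end of their gene, and that of TMED2 lies between the ends of TMED2-202 and TMED2-201.

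The 30 bases around the longest U run of the SAR1A and TMED2 sequences are shown, with that run in capitals (U written as T), from chr10:70150550-70150579 (minus strand) and chr12:123597595-123597624 (plus strand).
SAR1A: gttttcttaaTTTTTTTTTTcccctatttg
TMED2: gccactattttaTTTTTgatcagtggcctt
The SAR1A sequence is 45.3% U with a run of 10 U, and the TMED2 sequence is 36.8% U with a run of 5. The GOSR2 and LMAN2 sequences are 23.5% and 22.7% U, and their longest runs are 3 and 4 U. SAR1A, TMED2 and GOSR2 each had more sites in the sgHNRNPC table than in the MDA-LM2 table (6 and 5, 5 and 3, 8 and 5), as did 22.2% of the 63 genes and 25.4% of the other genes, and LMAN2 had 2 in both. No relation between these sequences and the listed sites was tested in these 4 genes.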

How the data were processed

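Per the labels, 3′-end libraries were prepared from 8 samples (2 replicates in each of 4 groups). The authors state that they counted reads at annotated transcript ends with Salmon 0.14.1. How the genomic positions among the sites were defined is not given in the sources used here. A multinomial logistic regression was fitted to every pair of poly(A) sites. The 2 deposited tables name the proximal and distal site of each pair and give the authors' estimate of how the ratio of the 2 sites changed, on a log scale, with its p and q. These comparison columns were not used here. Which filter kept a site is not given in the sources used here.

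Only site names, order, strand and symbol were used, and the pairs of 0 genes lacked a single order. Transcript ends were placed on GRCh38 with GENCODE release 44 by identifier and version. Genomic positions are not of GRCh38 and name no build, so they served only for distances among themselves. Of 130 positions in these genes, 13 (10.0%) lay within 5000 nt of the gene as GRCh38 places it.

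Members and gene classes were chosen with earlier results of these data known. Genes named are up to 4 per class with the most sites, up to 5 with the most sites in 1 table, SSR1 to SSR4 and those with a reporter sequence. Any other gene was picked with its values in view, as were transcript types, tags, A runs, 3′ UTR lengths, exon relations, spacing and the contrast of proximal with distal ends. Reporter sequences were searched only within 1000 nt of member genes. No test was run. Shares have 95% Wilson intervals. Functions were tested on made-up cases. Python 3.11.15 and matplotlib 3.10.9 were used.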

Additional observations from a re-analysis of the deposited data

How the results depend on the processing

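No paired analysis was possible because values of single samples are not in the tables, and for the same reason no replicate could be left out. The outermost distance, a median of 2018 nt between genomic positions, was 6646 nt between placed transcript ends and 1151.5 nt as the median over all genomic pairs of a gene. Hexamers, at 49.5% of ends, were at 59.4% of the ends of protein-coding transcripts (other genes 59.8%). Runs of U, at 33.9% of ends, were at 10.1% with at least 6 U (other genes 13.4%) and at 60.6% in the last 200 nt (other genes 51.6%). Ends placed without their version came to 98.4% in place of 85.8%. The other 9 alternatives, on which genes, sites and windows enter, stayed within the interval of the share or within 1.5 times the count. Leaving out TMED7-TICAM2 and GOLGA8DP left 69 genes. The absence of depth and of replicate values limits every statement on a site listed in 1 table.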
